A study of Arabidopsis thaliana with 3 samples.

Results

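The genes described here are the UDP-glycosyltransferases (UGTs) of Arabidopsis thaliana that the array's annotation names. A gene was a member if 1 of its names, a current symbol or a synonym, begins with UGT and a number. UGT78D1, UGT78D2 and AT4G14090, which belong to flavonoid and anthocyanin synthesis, were left out. This gave 49 genes of the 13355 that the annotation names. Each of the 49 had 1 probe set, so the choice of the brightest probe set per gene never came into play. UGT names of 12 group numbers were present: 71, 72, 73, 74, 76, 78, 79, 80, 84, 85, 87 and 88. In such a name the number gives the family, the letter the subfamily and the last number the gene.

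UGTs move a sugar, most often glucose, from a UDP-sugar onto a small molecule. Their acceptors include plant hormones, phenylpropanoids, flavonoids, glucosinolate precursors, sterols and foreign chemicals. The sugar usually makes the acceptor more soluble and less active, and ready for storage in the vacuole. Beta-glucosidases can take the sugar off again.

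All plants were Col-0, the common laboratory accession, and whole aerial parts were collected from them. There were 3 arrays in 3 groups, so each group had 1 array and no spread between plants could be measured. The first 2 groups were frozen after cold acclimation and then kept at 20 °C without light, 1 for 3 h (3 h recovery) and the other for 24 h (24 h recovery). Freezing lasted 20 h, at a temperature that the labels give as 6.0 °C without a sign. The third group, the cold-acclimated control, was not frozen and was taken at hour 5 of the light period. All 3 groups shared stratification for 2 days at 4 °C, growth at 20 °C with 9 h light and 15 h dark, and a move to 4 °C under the same cycle. This cold acclimation lasted 11 days in all 3 groups, and the control was harvested after it. The title of each array carries replicate number 3, and other replicates were not analysed here. Freezing, warmth, darkness and the hour of harvest differ together between recovery and control and cannot be told apart.

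Values are MAS5 signals on a linear scale, rescaled so that each array had a 2% trimmed mean of 100. A signal below 16.2, the 30th percentile of all Arabidopsis signals, was treated as below the floor and set to it before a ratio was taken. A ratio with 1 array below the floor is therefore a lower bound on the difference. As there is no replicate, no test was run, and "higher" and "lower" describe pairs of arrays. The only error the arrays offer is the disagreement of 2 probe sets of the same gene. Its SD was 0.33 log2 units for 3 h against control and 0.40 for 24 h against control (77 genes each), and 0.35 for 24 h against 3 h (76 genes). It covers error that differs between probe sets, not error shared by a whole array, such as scaling, and not plants. A 2-fold difference, 1 log2 unit, was used to count genes.

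Some facts of the arrays touch every ratio below. The 17 bacterial hybridization controls above the floor were 1.63-fold higher on the 3 h array and 1.39-fold higher on the 24 h array than on the control. Scaling to them instead would lower the typical log2 ratio by 0.70 at 3 h and by 0.48 at 24 h. The ratio of 3′ to 5′ probe sets, a sign of RNA quality, was 1.60, 1.66 and 1.42 for GAPDH on the 3 h, 24 h and control arrays, and 2.21, 2.09 and 2.55 for actin. The part of these differences in the results was not tested. The 3 leaf markers on the annotation, RCA, LHCB4.1 and LHCB4.2, had signals of 1331 to 4300 on all arrays. Of the 3 root markers, EXPA7 and EXPA18 stayed at or below 22.5 on every array, and PYK10 was at 18.7 at 3 h and 106.0 at 24 h, against 15.8 on the control. Their summed signal was 56.2 at 3 h and 119.7 at 24 h, against 58.6 on the control. The rise of the sum at 24 h lay in PYK10 alone. EXPA7 had 8.38 and EXPA18 had 5.28 at 24 h, against 20.5 and 22.3 on the control. No flower or seed marker was on the annotation. In whole aerial parts, fewer cells of a type and less RNA per cell cannot be told apart.

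Many UGT genes gave little or no signal in these shoots. On all 3 arrays 24 of the 49 were above the floor, 3 were above it on 2 arrays, 10 on 1 array and 12 on none. Above the floor were 30 UGT genes at 3 h (61.2%) and 30 at 24 h, against 28 on the control (57.1%), where named genes as a whole had 64.8%, 65.6% and 65.5%. The 12 below the floor throughout were UGT71B8, UGT71C1, UGT71C3, UGT72E3, UGT73C1, UGT73C2, UGT74F1, UGT76E2, UGT79B6, UGT84A1, UGT84B1 and UGT84B2. No direction is given for them.

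After 3 h of recovery, 8 UGT genes were at least 2-fold apart from the control and 7 of them were higher. With scaling to the hybridization controls more were lower than higher, as among all named genes. At least 2-fold higher were 7 of the 49 (14.3%), beside 3.98% of all named genes. The 7 were UGT76E12, UGT76E11, UGT76E1, UGT76B1, UGT73B5, UGT73D1 and UGT71B6. A single gene, UGT71C4, was at least 2-fold lower (2.04%, beside 2.68% of all named genes). For 4 of the 7 the control lay below the floor. Among the 24 UGT genes above the floor on both arrays, 3 were at least 2-fold higher, beside 5.46% of such named genes, and 1 was lower, beside 3.75%. With scaling to the hybridization controls there were 4 UGT genes higher (1.86% of named genes) and 9 lower (22.5%). With the floor at the 45th percentile 2 were higher (3.23% of named genes) and 1 lower (1.54%). With the floor at the 15th percentile 10 were higher (7.08%) and 5 lower (6.45%).

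The middle of the family stayed near that of all genes. The 34 UGT genes above the floor on at least 1 of the 2 arrays had a median log2 ratio of -0.10 at 3 h, beside -0.14 for named genes. Their log2 ratios ran from -1.21 to 3.85, and 26 of the 34 lay within 2-fold. Some of the 26 had 1 array below the floor, so their ratios are lower bounds and the differences may be larger. The median was slightly above 0 with median scaling, quantile normalization and the loess correction, and below 0 with scaling to the hybridization controls.

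Those members are seen best by group number. Group 76 supplied 4 of the 7 that were higher, from 7 of its 8 members with a usable signal, and group 73 supplied 2 from 3 of its 7. Group 71 had 1 higher and 1 lower among 6. UGT76E12, UGT76E1, UGT73B5, UGT73B4 and UGT71B6 were below the floor on the control, so they are usable only through their 3 h signal. The shares among usable members are therefore partly set by that filter. Of the 7 higher genes, UGT76E11, UGT76B1 and UGT73D1 alone were above the floor on the control. The remaining groups, 72, 74, 78, 79, 80, 84, 85, 87 and 88, had no member past 2-fold at 3 h, with log2 ratios between -0.98 and 0.61. For UGT78D3, UGT85A4 and UGT85A7 these are lower bounds on the difference.

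**Figure D1:**
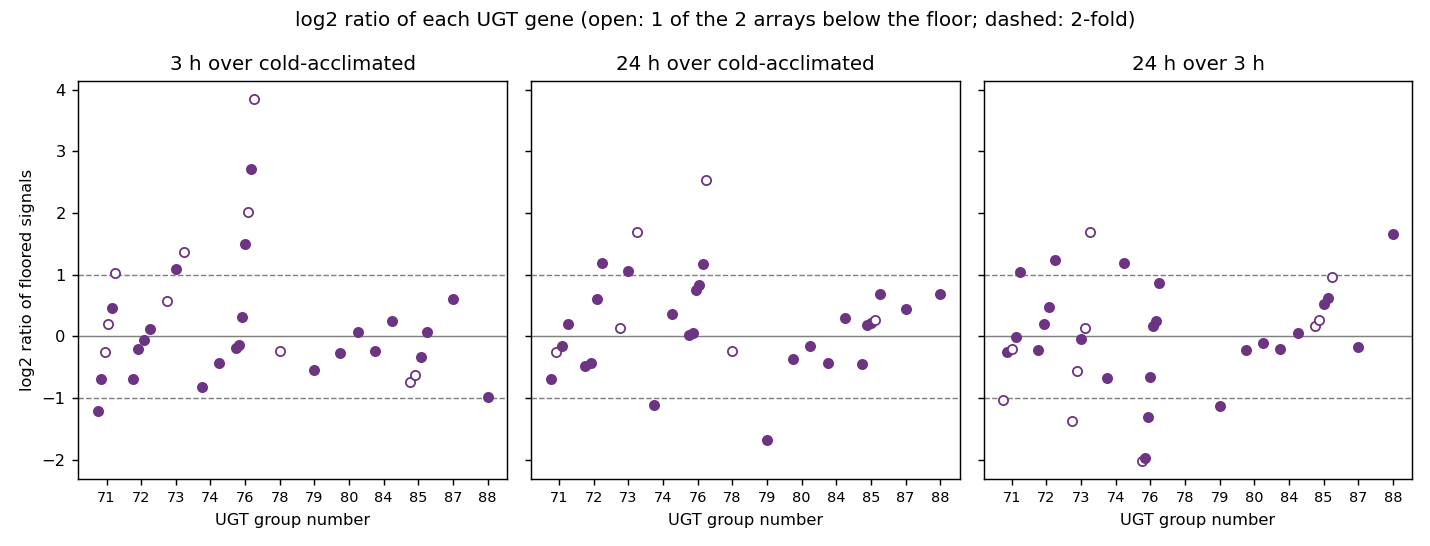
log2 ratio (vertical axis) of each UGT gene above the floor on at least 1 of the 2 arrays, by UGT group number (horizontal axis), for 3 h over control, 24 h over control and 24 h over 3 h. Each point is 1 gene, open where 1 of the arrays is below the floor, and dashed lines mark 2-fold. Group 76 reaches 3.85 at 3 h and 2.54 at 24 h, and at 3 h every point outside groups 71, 73 and 76 lies between the dashed lines.

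The widest differences were in subfamily 76E. UGT76E12 had a signal of 233 at 3 h and 94.1 at 24 h, against 1.08 on the control, which is below the floor. It was at least 14.4-fold higher than the control at 3 h and at least 5.83-fold higher at 24 h. These bounds, log2 ratios of 3.85 and 2.54, are set by the floor, and were 2.81 and 1.499 with the floor at the 45th percentile. It was the only UGT gene of subfamily 76E past 2-fold at both times.

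UGT76E11, a flavonoid glucosyltransferase, had signals of 399.7 at 3 h and 101.6 at 24 h, against 60.5 on the control. All 3 signals were above the floor, so its log2 ratio of 2.72 at 3 h is not a bound. At 24 h it was 0.75, within 2-fold. Under each of the 12 alternative settings UGT76E11 at 3 h stayed past 2-fold, between 2.02 and 2.89. Some of those settings, such as other probe set choices and stricter filters, cannot move its ratio.

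UGT76E1 glucosylates hydroxylated jasmonate. Its signal was 65.4 at 3 h and 1.84 at 24 h, against 1.65 on the control, so only the 3 h array was above the floor. At 3 h it was thus at least 4.05-fold above the control, a log2 ratio of 2.02 that depends on the floor and was 0.97, under 2-fold, with the floor at the 45th percentile. Its relative UGT76E2 had 9.43 at 3 h and 2.42 at 24 h, against 2.52 on the control, all below the floor.

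UGT76B1 lies in the same group and has defence signals as acceptors: isoleucic acid, salicylic acid and N-hydroxypipecolic acid. Its signals were 62.7 at 3 h and 39.6 at 24 h, against 22.2 on the control. The log2 ratio was 1.497 at 3 h and 0.84 at 24 h, and scaling to the hybridization controls brought the 3 h value to 0.79. UGT74F1, a salicylic acid glucosyltransferase, was below the floor on all arrays.

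The subfamily 73B genes UGT73B5 and UGT73B4 are neighbours in the genome, and UGT73B5 is known for a part in redox and defence responses. UGT73B5 had 41.9 at 3 h and 13.8 at 24 h, against 11.8 on the control, and was at least 2.59-fold higher at 3 h. UGT73B4 had 23.9 at 3 h and 3.13 at 24 h, against 1.00 on the control, and was at least 1.48-fold higher at 3 h. The 3 h array alone was above the floor for either gene, and the bound of UGT73B5 depends on that floor: set at the 45th percentile, it leaves a log2 ratio of 0.33. UGT73B1 did otherwise, with 11.3 at 3 h and 52.2 at 24 h, against 14.9 on the control. It was above the floor at 24 h alone, where it was at least 3.23-fold higher than the control (log2 ratio 1.69, or 0.65 with the higher floor).

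UGT73D1 was the second UGT gene higher at both times. It had 49.1 at 3 h and 47.8 at 24 h, against 23.0 on the control, with log2 ratios of 1.10 and 1.06. Both lie close to the 2-fold line, and both fell short of it with scaling to the hybridization controls, at 0.39 and 0.58. UGT73C7, next to it in the genome, had 12.3 at 3 h and 17.8 at 24 h, against 7.73 on the control.

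**Figure D2:**
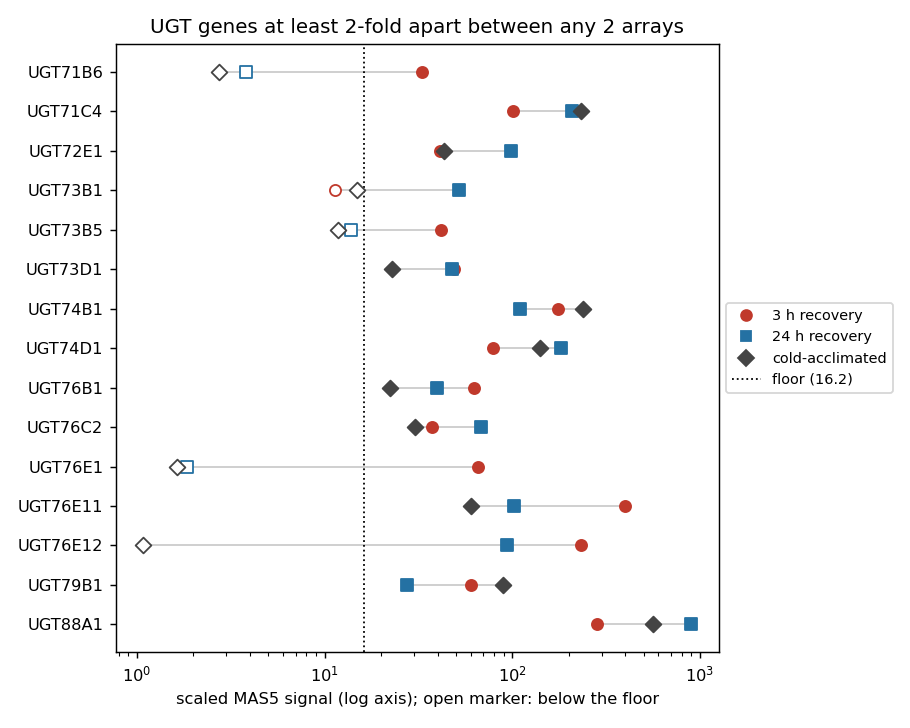
Scaled signal (horizontal log axis) on the 3 h array (red circles), the 24 h array (blue squares) and the cold-acclimated array (grey diamonds) for the 15 UGT genes at least 2-fold apart between any pair of arrays. The dotted line is the floor of 16.2, and open markers lie below it. For UGT76E1, UGT71B6 and UGT73B5 the 3 h signal alone is above the floor, and for UGT73B1 the 24 h signal alone.

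After 24 h 7 UGT genes were at least 2-fold apart from the control, and 2 of them, UGT76E12 and UGT73D1, had been higher at 3 h as well. At least 2-fold higher were 5 of the 49 (10.2%), beside 5.30% of all named genes, and at least 2-fold lower were 2 (4.08%), beside 5.58%. The 5 were UGT76E12, UGT73B1, UGT72E1, UGT76C2 and UGT73D1, and the 2 were UGT79B1 and UGT74B1. Among the 26 UGT genes above the floor on both arrays, 3 were higher, beside 7.34% of such genes, and 2 lower, beside 7.90%. The 32 UGT genes above the floor on at least 1 of these arrays had a median log2 ratio of 0.19, beside 0.01 for named genes. With scaling to the hybridization controls that median was -0.27, with 2 UGT genes higher (2.51% of named genes) and 3 lower (14.3%). With the floor at the 45th percentile 3 were higher (4.1%) and 2 lower (4.13%). With a pseudocount in its place 2 were higher (3.86%) and 2 lower (4.13%). With the floor at the 15th percentile 7 were higher (8.9%) and 5 lower (9.4%). No UGT gene was past 2-fold in opposite directions at the 2 times.

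Among the hormone-conjugating UGTs, some were past 2-fold of the control at 1 of the times and others within it at both. Of the abscisic acid glucosyltransferases, UGT71B6 had 33.1 at 3 h and 3.82 at 24 h, against 2.75 on the control, and was at least 2.05-fold higher at 3 h, a log2 ratio of 1.03 that was 0.74 with scaling to the hybridization controls. UGT71C5 had 87.0 at 3 h and 72.5 at 24 h, against 63.4 on the control, within 2-fold throughout. The third of them, UGT71B8, was below the floor.

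UGT76C1 and UGT76C2 attach glucose to cytokinins and sit beside each other in the genome. UGT76C2 had 37.4 at 3 h and 68.3 at 24 h, against 30.2 on the control, a log2 ratio of 1.18 at 24 h that was 0.70 with scaling to the hybridization controls. UGT76C1 had 38.5 at 3 h and 43.4 at 24 h, against 42.5 on the control. The neighbours thus had 1 member past 2-fold at 24 h and 1 close to its control value.

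UGT74D1, which glucosylates auxins, had its lowest signal at 3 h. It was at 79.0 at 3 h and 181.2 at 24 h, against 140.3 on the control. Both recovery signals were within 2-fold of the control, with log2 ratios of -0.83 and 0.37. The other auxin-conjugating member, UGT84B1, was below the floor.

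Among UGTs of phenylpropanoids, UGT72E1 glucosylates lignin precursors. It had 41.3 at 3 h and 97.9 at 24 h, against 43.1 on the control, a log2 ratio of 1.18 at 24 h that was 0.71 with that scaling. UGT72E2, which acts on the same class, had 49.3 at 3 h and 42.3 at 24 h, against 57.1 on the control. UGT72B1, which also conjugates foreign chemicals, had 179.9 at 3 h and 251.4 at 24 h, against 165.5 on the control, within 2-fold. UGT72B3 was within 2-fold as well, at 34.4 and 39.5, against 55.4 on the control. Of the hydroxycinnamate glucosyltransferases, UGT84A3 (log2 ratios 0.25 at 3 h and 0.30 at 24 h) and UGT84A4 (-0.23 and -0.44) stayed within 2-fold.

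UGT79B1, also named UF3GT, adds xylose to anthocyanins. It had 60.5 at 3 h and 27.6 at 24 h, against 88.7 on the control, with log2 ratios of -0.55 and -1.68. The 24 h value was the lowest of the family at that time and stayed past 2-fold under all 12 alternative settings, between -2.16 and -1.26. Not all of those settings can move it, since other probe set choices and stricter filters leave it unchanged. UGT78D3, a flavonol arabinosyltransferase, was above the floor on the control alone, at 13.5 and 7.71 in recovery, against 19.1.

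UGT74B1 makes glucosinolate precursors by adding glucose to sulfur. It had 174.9 at 3 h and 109.7 at 24 h, against 236.8 on the control, with log2 ratios of -0.44 and -1.11. The sterol glucosyltransferases UGT80A2 and UGT80B1 were nearly level across the arrays. UGT80A2 had 99.6 at 3 h and 85.6 at 24 h, against 95.3 on the control. UGT80B1 had 89.0 at 3 h and 82.9 at 24 h, against 106.9 on the control.

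Between the recovery arrays, kept in darkness and warmth for 3 h or 24 h, UGT genes were past 2-fold in both directions. At 24 h 5 of the 49 were at least 2-fold higher than at 3 h (10.2%), beside 7.15% of all named genes, and 6 were at least 2-fold lower (12.2%), beside 5.78%. Above the floor on both arrays were 25, of which 4 were higher, beside 10.0%, and 3 lower, beside 8.36%. The 6 lower ones were UGT76E1, UGT76E11, UGT73B5, UGT76E12, UGT79B1 and UGT71B6. With the floor at the 15th percentile 8 were higher (11.2% of named genes) and 8 lower (9.73%). With a pseudocount 3 were higher (5.17%) and 5 lower (4.62%). With the floor at the 45th percentile 4 were higher (5.26%) and 2 lower (4.55%). In the main setting, all of the 6 lower ones but UGT79B1 were among the 7 that were higher at 3 h than on the control. Both comparisons use the 3 h array, so they are not independent of each other.

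The 5 higher at 24 h than at 3 h were UGT73B1, UGT88A1, UGT72E1, UGT74D1 and UGT71C4. UGT88A1 had 899 at 24 h and 283.6 at 3 h, with 559.8 on the control between them. Its log2 ratio for 24 h over 3 h was 1.67, and its ratios against the control, 0.68 at 24 h and -0.98 at 3 h, were within 2-fold. UGT71C4 had 207.1 at 24 h and 100.3 at 3 h, with 231.9 on the control, and its log2 ratio at 3 h against the control was -1.21. Its log2 ratio of 1.05 for 24 h over 3 h lies at the 2-fold line, and was 0.93 with median scaling, 0.94 with a pseudocount and 0.96 with quantile normalization or the loess correction. UGT74D1, UGT88A1 and UGT71C4 share the order of a low 3 h signal and a 24 h signal nearer to or above that of the control. The 35 UGT genes above the floor on at least 1 of these arrays had a median log2 ratio of -0.01, beside 0.07 for named genes, and 0.16 with scaling to the hybridization controls.

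The other members above the floor on any array had ratios within 2-fold in all comparisons. With those given above as such, they number 22. Where 1 array was below the floor, that ratio is a lower bound. The difference may then be past 2-fold, as for UGT73B4, UGT85A5, UGT71C2 and UGT85A4. UGT87A2, which affects flowering time, had 605 at 3 h and 538 at 24 h, against 397.2 on the control. Subfamily 85A had 5 members, UGT85A2, UGT85A3, UGT85A4, UGT85A5 and UGT85A7, with log2 ratios from -0.74 to 0.07 at 3 h for the 4 usable there and from -0.45 to 0.69 at 24 h. UGT85A4 came nearest to the 2-fold line, at 31.4 at 24 h and 10.1 at 3 h, a log2 ratio of at least 0.96. UGT71B1 had 88.0 at 3 h and 87.6 at 24 h, against 141.7 on the control. UGT76D1 was within 0.25 log2 units in every comparison, and UGT71B5 and UGT71C2 were above the floor on 1 array each.

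The nearest values around the 2-fold line were as follows. At 3 h UGT71B6 (1.03) was just past it and UGT87A2 (0.61) was the next below, while among lower genes UGT71C4 (-1.21) was past it and UGT88A1 (-0.98) was not. At 24 h UGT73D1 (1.06) was past it and UGT76B1 (0.84) was not, and UGT74B1 (-1.11) was past it and UGT71B1 (-0.69) was not. The gaps from UGT71C4 to UGT88A1 at 3 h and from UGT73D1 to UGT76B1 at 24 h are smaller than the SD between probe sets. The value of UGT71B6 is a lower bound set by the floor.

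Many UGT genes stand in tandem. In the order of protein-coding genes in the RefSeq table of assembly TAIR10.1, 28 of the 49 lay beside another member, or with 1 gene between, in 12 runs of 2 to 4 genes. Of the 16 neighbouring pairs, 6 had both members above the floor on at least 1 of the 3 h and control arrays. In 1 of these pairs both genes were at least 2-fold higher, UGT76E12 and UGT76E11. In 2 pairs 1 gene was past 2-fold, UGT73B5 beside UGT73B4 and UGT71C4 beside UGT71C5, and in 3 pairs neither was. At 24 h 8 pairs could be read, of which none had both genes past 2-fold, 3 had 1 gene past it and 5 had none. These counts use ratios that are lower bounds for UGT73B4 and UGT85A7 at 3 h and for UGT85A5 and UGT73C7 at 24 h. Such genes may be past 2-fold.

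UGT71C4 and UGT71C5 went apart at 3 h, with log2 ratios of -1.21 and 0.46. The opposite directions depend on the scaling. Scaling to the hybridization controls shifts the typical log2 ratio at 3 h by -0.70, enough to bring UGT71C5 below 0. All 49 probe sets carry the plain suffix that marks no cross-hybridization, but whether their probes tell tandem copies apart was not tested. In the RefSeq table the spans of UGT73B4 and UGT73B5 overlap, as do those of UGT71C3 and UGT71C4. Protein-coding genes overlap 8 members, which besides these include UGT73B1 and UGT76E1, where the other gene is not a member. Long non-coding RNAs overlap 7 members, among them UGT76E11, UGT76E12, UGT71B6 and UGT74D1.

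Lists of other enzymes and transporters were counted in the same way, and only counts of the main setting are given. Beta-glucosidases, which can release the sugar, had 22 genes on the annotation. At 3 h 1 was at least 2-fold higher, and none lower, beside 3.98% and 2.68% of all named genes, so this count is near the background. At 24 h 6 of the 22 were at least 2-fold higher, and none lower, beside the 5.30% and 5.58% of all named genes. This count depends on scaling and floor. Scaling to the hybridization controls shifts the typical log2 ratio at 24 h by -0.48, enough to take BGLU40 (1.435) and BGLU25 (1.16) under 2-fold. The ratios of PYK10, BGLU45 and BGLU46 at 24 h are bounds set by the floor. BGLU25 had 1601 at 3 h and 996 at 24 h, against 446.0 on the control. PYK10, which is also the root marker above, was at 24 h at least 6.56-fold above its control signal. BGLU16 had 102.1 at 3 h and 378.3 at 24 h, against 102.6 on the control. The monolignol glucosidases BGLU45 and BGLU46 were at 51.0 and 35.0 at 24 h, against 13.1 and 5.50 on the control, both below the floor there.

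Glutathione transferases, which like UGTs conjugate reactive and foreign compounds, had 13 genes on the annotation. At 3 h none was past 2-fold in either direction, which for 13 genes is near the background of 3.98% higher and 2.68% lower among all named genes. Their 10 genes above the floor had a median log2 ratio of -0.35. At 24 h 2 were higher and 2 lower, beside 5.30% and 5.58% of all named genes. GSTU16 had 39.2 at 3 h and 179.6 at 24 h, against 66.9 on the control, and GSTU18 had 161.3 and 209.8, against 101.2. GSTU20 had 1046 at 3 h and 173.4 at 24 h, against 1144 on the control, and GSTU26 was at least 2.31-fold lower at 24 h.

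The list of MATE and ABCC transporters had 1 gene on the annotation, AT5G52050. Whether it moves sugar conjugates was not tested. This MATE exporter of abscisic acid had 322.7 at 3 h and 39.9 at 24 h, against 6.77 on the control, and was at least 20.0-fold higher at 3 h. Of 25 names written for the supply of UDP-sugars 1 was on the annotation, USP, at 129.4 at 3 h and 114.9 at 24 h, against 104.7 on the control. These 2 lists therefore say little about their pathways.

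**Figure D3:**
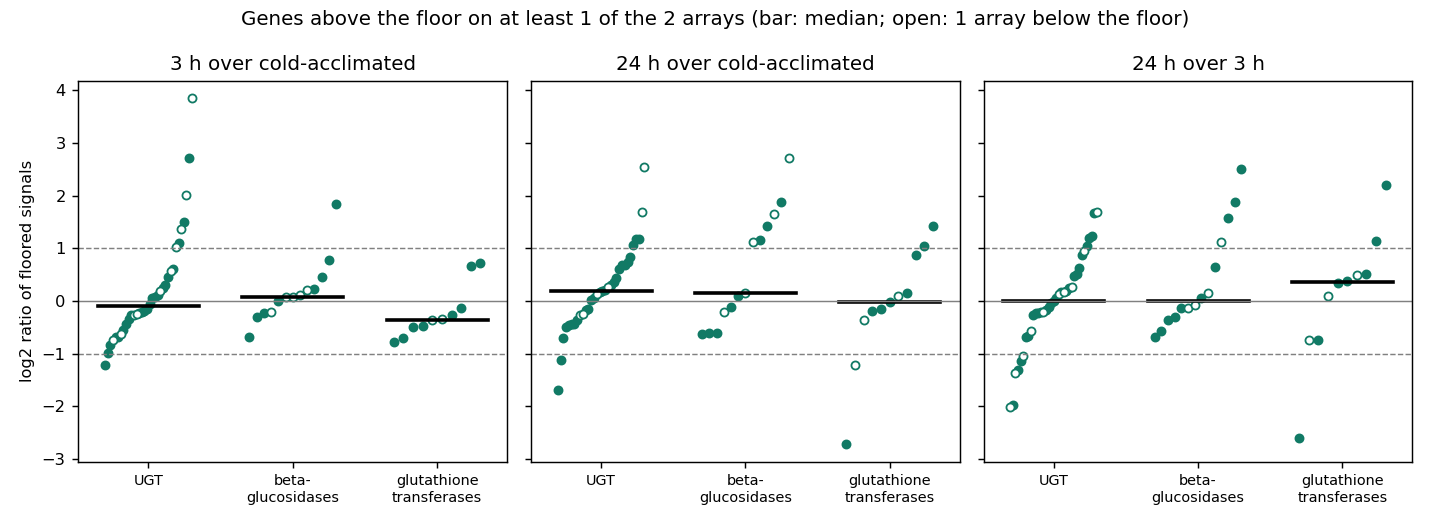
log2 ratios (vertical axis) of UGT, beta-glucosidase and glutathione transferase genes (horizontal axis) above the floor on at least 1 array of each comparison. Each point is 1 gene, open where 1 array is below the floor, bars are medians and dashed lines mark 2-fold. At 3 h the UGT genes extend to 3.85, the beta-glucosidases to 1.84 and the glutathione transferases to 0.72.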

How the data were processed

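RNA from whole aerial parts was hybridized to 3 ATH1 arrays, 1 per group. The authors deposited 1 signal intensity per probe set on a linear scale, and the submitters' processing notes name MAS5 without version or settings. Each array had a trimmed mean of 100.0 as deposited. Arrays were rescaled to a 2% trimmed mean of 100, signals below the 30th percentile (16.2) were set to it, and log2 ratios were taken for each pair of arrays. Detection calls were not used here, and precision is limited by having 1 array per group. The platform's annotation gave 1 gene for 13513 of 22746 Arabidopsis probe sets, several for 503 and none for 8730, which are unnamed here; 13436 of the 13513 matched the RefSeq table of TAIR10.1. It names 13355 genes, and 51 had a UGT name, of which 2 were left out by the rule.

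Members and lists were chosen with earlier results of these data known. Signals were to be printed for every member past 2-fold in a comparison and for the 8 brightest, and for list genes the 2 highest and 2 lowest past 2-fold; others named were chosen after their values were seen. No sequence was used, so likeness by protein was replaced by gene order. The ratio and counting step was tested on simulated data. Alternatives were the values as deposited, other scalings, other floors, a pseudocount of 16, other probe set choices, and 2 stricter filters added after seeing the data. Python 3.11.15, numpy 2.4.6, pandas 2.3.3, statsmodels 0.14.6 and matplotlib 3.10.9 were used.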

Additional observations from a re-analysis of the deposited data

Results flagged for a closer look

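Plant control probe sets that enter none of the comparisons stood at least 2-fold above the cold-acclimated array in 3 cases. That of 25S ribosomal RNA had 1292 at 24 h, against 238.4 on the control, which is 5.42-fold higher. The 5′ ubiquitin probe set was 2.08-fold higher at 3 h, and the middle ubiquitin probe set was 2.15-fold higher at 24 h. Groups of 1 array allow no search for samples that stand apart.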

How the results depend on the processing

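No paired analysis was possible because each group has 1 array. Of the 26 ratios past 2-fold of the UGT genes, 10 stayed past it under every one of the 12 alternative settings that gave them a value, and 16 fell short in at least 1, with no change of sign. Several of the 12 settings could not move these ratios. Other probe set choices leave a gene with 1 plain probe set unchanged, and the stricter filters only drop genes. The deposited values were already scaled nearly alike. UGT76E12 against the control, at 3 h and at 24 h, has no value where both arrays must be above the floor. At 3 h against the control, 7 UGT genes were higher and 1 lower. Scaling to the hybridization controls gave 4 higher and 9 lower, and the floor at the 15th percentile 10 higher and 5 lower. The floor at the 45th percentile gave 2 higher, and a signal above the floor on both arrays 3 higher. The median log2 ratio of -0.10 became 0.0077 with median scaling, 0.0035 with quantile normalization, 0.073 after loess, -0.66 with hybridization controls, 0.067 under the 45th percentile floor and 0.064 with the brighter array at or above the median of 41.7. At 24 h against the control, 5 were higher and 2 lower. Hybridization controls gave 2 higher, the floor at the 45th percentile 3, the pseudocount 2 and both arrays above the floor 3. The floor at the 15th percentile gave 7 higher and 5 lower. The median of 0.19 became -0.27 with hybridization controls. For 24 h against 3 h, 5 were higher and 6 lower. The floor at the 15th percentile gave 8 higher and 8 lower, and the pseudocount 3 higher. The floor at the 45th percentile gave 2 lower and both arrays above the floor 3. The median of -0.01 became 0.16 with hybridization controls. The shares of all named genes, given beside the counts above, moved with the settings as well. The floors and filters change which dim genes are counted, and the cause of the other differences was not tested. Signal over the floor limits the 25 UGT genes that were not above it on all arrays.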
